A study of Mus musculus with 21 samples.

Results

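Serpinb9, Serpinb6a, Serpinb6b, Serpinb1a and Serpina3g, 5 protease inhibitor genes of the serpin family, were followed by name in single mouse CD8 T cells. All 5 were among the 17516 gene symbols of every library, and the rule that names them uses no measured value. The cells were of the OT1 line, which carries a transgenic T cell receptor for an ovalbumin peptide. There were 21 libraries, 1 for each of 21 conditions. Naive cells were taken on day 0. All the others were stimulated with beads coated with anti-CD3 and anti-CD28. They were then grown without cytokine (days 3 and 5) or with IL-2, IL-2v or IL-15 at 5 or 50 IU/mL (days 3, 5 and 10). The name IL-2v is that of the protocol and design texts; the libraries taken as IL-2v carry bg in their titles and mutant IL-2bg in their treatment labels, and no label equates the names. For the 6 libraries titled 50 IU/mL IL-2 or IL-15, the treatment label names another interleukin than the title, and the titles were followed. The extract protocol speaks of cells sorted from tumours and the growth protocol of culture, and the cells were taken as cultured. The age and sex of the mice, and whether animals were pooled, are not given in the sources used here.

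Serpins stop proteases by suicide inhibition: the protease cuts an exposed loop of the serpin and stays locked to it. Those of clade B lack a classical secretion signal and act mostly inside the cell that makes them. Killer T cells store granzymes, serine proteases, in granules, and cytosolic serpins are known for guarding such cells against granzyme that leaks from the granules. Serpinb9 inhibits granzyme B. Serpinb6a and Serpinb6b are mouse relatives of human SERPINB6, an inhibitor of cathepsin G and related proteases. Serpinb1a inhibits elastase-type and chymotrypsin-type proteases of neutrophil granules. Serpina3g, also called Spi2A, is an intracellular member of clade A that inhibits lysosomal cysteine cathepsins and is known for its part in the survival of memory CD8 T cells.

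In GENCODE vM21 (GRCm38), the 4 clade B genes lie on chromosome 13: Serpinb1a from 32842092 to 32851185 (minus strand), Serpinb6b from 32965209 to 32979067 (plus strand), Serpinb9 from 33003250 to 33017957 (plus strand) and Serpinb6a from 33917918 to 34002794 (minus strand). Serpina3g lies on chromosome 12 from 104236245 to 104241939 (plus strand), next to its relative Serpina3f. Serpina3g shared 15.5% of its 50-base stretches with 7 other genes, above all with Serpina3h (8.89%). Its level is thus uncertain where reads could not be assigned to 1 copy. For the clade B members the shared part ran from 0.378% (Serpinb9) to 2.92% (Serpinb6b). Exons of Serpinb6a are overlapped by 1110046J04Rik, Nqo2 and Ripk1 of the opposite strand. The largest overlap with any 1 of them is 14.1% of its exonic bases, and the joint share was not computed.

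The sequence before the gene is shown for the members whose window held a motif match and no annotated exonic base of the gene itself. Serpina3f, the neighbour of Serpina3g, is shown too, so that the letters can be read beside the levels. Each run is the 250 bases upstream of the RefSeq start in GRCm38.p6, written 5′ to 3′ along the gene. RefSeq gave such a window for 4 of the 5 members, all but Serpinb1a. The motifs searched on both strands were TTCNNNGAA, the palindrome bound by STAT5 and related factors of the IL-2 and IL-15 receptors, the ISRE core of interferon regulatory factors (GAAA repeated after any 2 bases), TGANTCA of AP-1, and the kappaB motif of NF-kappaB. Capitals mark the matches. The windows are chr12:104235897-104236146 (plus strand), chr12:104214294-104214543 (plus strand), chr13:34002795-34003044 (minus strand) and chr13:33004291-33004540 (plus strand). None of them holds an annotated exonic base of its own gene, and exons of other genes were not checked. The window of Serpinb9 lies inside the GENCODE gene, whose longest model starts upstream of the RefSeq start.
Serpina3g: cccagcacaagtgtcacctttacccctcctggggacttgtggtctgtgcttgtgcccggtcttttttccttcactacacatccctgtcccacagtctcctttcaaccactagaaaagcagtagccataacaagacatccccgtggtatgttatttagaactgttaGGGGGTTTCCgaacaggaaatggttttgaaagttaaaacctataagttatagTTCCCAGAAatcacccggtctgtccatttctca
Serpina3f: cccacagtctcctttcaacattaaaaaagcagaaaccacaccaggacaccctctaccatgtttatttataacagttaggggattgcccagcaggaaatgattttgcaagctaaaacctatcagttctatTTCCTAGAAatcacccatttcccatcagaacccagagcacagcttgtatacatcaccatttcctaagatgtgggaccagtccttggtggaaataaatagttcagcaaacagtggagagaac
Serpinb6a: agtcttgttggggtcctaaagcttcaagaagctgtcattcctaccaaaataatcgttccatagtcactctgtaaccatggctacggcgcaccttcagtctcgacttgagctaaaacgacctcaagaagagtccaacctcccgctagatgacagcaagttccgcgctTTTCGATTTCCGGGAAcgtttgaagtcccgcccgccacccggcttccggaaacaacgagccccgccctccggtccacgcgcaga
Serpinb9: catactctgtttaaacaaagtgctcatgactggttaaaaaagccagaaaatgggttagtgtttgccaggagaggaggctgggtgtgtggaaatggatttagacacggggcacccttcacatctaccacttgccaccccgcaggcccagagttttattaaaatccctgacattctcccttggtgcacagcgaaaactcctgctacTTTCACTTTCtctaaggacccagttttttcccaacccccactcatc

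The Serpina3g window holds 1 TTCNNNGAA match, TTCCCAGAA, 33 bases before the start, and 1 kappaB match 85 bases before it. Serpina3f also holds 1 TTCNNNGAA match, TTCCTAGAA, 121 bases before the start. In the Serpinb6a window a TTCNNNGAA match (77 bases before the start) overlaps an ISRE match on the reverse strand (84 bases). Serpinb9 holds 1 ISRE match on the reverse strand, 46 bases before the start. Of 32851 RefSeq windows of 250 bases, 7.02% held TTCNNNGAA, 2.98% the ISRE core, 6.75% TGANTCA and 3.9% the kappaB motif. The Serpinb6b window (chr13:32965011-32965260) holds 52 exonic bases and none of the 4 motifs. RefSeq gives Serpinb6a and Serpina3f a second start each. The window of the other Serpinb6a start (chr13:33936084-33936333) holds 115 exonic bases and none of the 4 motifs, and from the other Serpina3f start the same TTCNNNGAA match lies 210 bases away. The matches are descriptions of the letters and say nothing of binding.

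The files held raw counts of unique molecular identifiers (UMIs, tags that mark single captured RNA molecules). After filtering, 3250 to 7105 cells per library remained, with 10589950 to 32648496 UMIs in all and a median of 3016 to 5065 UMIs per cell. Levels are UMIs summed over all cells of 1 library and expressed per 1000000 UMIs of that library (CPM), with exact Poisson 95% intervals. These intervals cover counting error only. Since no condition had a second library, no p-value was computed, and the spread between cultures is unknown. All 6 listed CD8 T cell markers were present in each library, and their summed level was 2238 to 5519 CPM. The summed level of the B cell list was at most 17.8 CPM and of the myeloid list 15.3, and Cd4 was at most 4.39 CPM. The natural killer list of 3 genes was at 22.4 and 21.4 CPM in the day 10 cultures with 5 and 50 IU/mL IL-2 and at 36.8 CPM in that with 50 IU/mL IL-2v, against at most 3.68 CPM elsewhere. Of that list Ncr1 was at 0 in both 50 IU/mL cultures. These are the 3 libraries highest in Serpinb6a and in Gzma, and both 50 IU/mL cultures are among the highest for Serpinb9 and Serpinb1a; the part of such cells or genes in those levels was not tested. By Ly6g, 1 library stood apart: on day 10 with 50 IU/mL IL-2, the neutrophil gene Ly6g was at 152 CPM and the basophil gene Mcpt8 at 11.5 CPM, and the myeloid list had its highest sum there (15.3 CPM), of which Cd68 made up 14.9 CPM. In the other activated libraries Cd68 was at 0.901 to 9.07 CPM. Lyz2, Csf1r and Adgre1 were at 0 in all 20 activated libraries, this one included. Itgam was at 0.44 CPM in this library and at up to 4.54 CPM in the other activated ones. Cpa3, listed with Mcpt8, was at 0.22 CPM here and at 2.92 CPM on day 10 with 5 IU/mL IL-2. Ly6g was the only 1 of the 5 listed neutrophil genes present in the data. The type of these cells was not tested. In the library that stood apart, 26.3% of cells held a UMI of Ly6g, Mcpt8 or Cpa3, and in no other library did the share pass 1.46%. Without those cells, Serpinb6b in this library was at 191 CPM (182 with them), Serpina3g at 54.9 (51.3), Gzmb at 7049 (7618), Gzma at 5299 (5352) and Serpine2 at 30.6 (32.6); the other members are given with their levels. Leaving them out of all libraries changed no call of a member in the comparisons that follow.

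Serpinb9 was high in the cells given 50 IU/mL IL-2 or IL-2v from day 5 on, and low in naive cells and late IL-15 cultures. Naive cells held 12.4 CPM (10.8 to 14.1). On day 3 the 7 libraries ran from 22.9 CPM (no cytokine) through a median of 27.6 to 34.3 (50 IU/mL IL-2v), a span of 1.5-fold. On day 5 the level was 17.2 CPM without cytokine. At 5 and 50 IU/mL it was then 20.3 and 77.8 in IL-2 cultures, 22.6 and 69.6 in IL-2v cultures and 12.6 and 22.3 in IL-15 cultures. By day 10 the IL-2 cultures held 29.9 and 150.0 CPM, the IL-2v cultures 20.3 and 107, and the IL-15 cultures 8.79 and 12.2, a span of 17.1-fold. The 4 highest libraries were thus days 5 and 10 with 50 IU/mL of IL-2 or IL-2v, and all 4 intervals lay above those of the other 17 libraries. The intervals of the pair from day 5 overlapped each other (72.6 to 83.3 and 66.1 to 73.2). Without the cells holding Ly6g, Mcpt8 or Cpa3, the highest library was at 160 CPM.

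Serpinb1a had the same 4 libraries at its top and a wider span. Naive cells were at 6.17 CPM (5.09 to 7.42). On day 3 the level lay between 8.98 CPM (5 IU/mL IL-2v) and 19.9 (5 IU/mL IL-2), with a median of 13.6. On day 5 it was 2.14 CPM (1.61 to 2.79) without cytokine, the lowest library. The 5 and 50 IU/mL cultures of that day held 12.3 and 101 (IL-2), 9.61 and 32.9 (IL-2v) and 3.48 and 9.70 (IL-15). Those of day 10 held 27.7 and 137 CPM (IL-2), 6.0 and 43.5 (IL-2v) and 3.22 and 13.0 (IL-15). The highest library was 63.8-fold above the lowest, and the 5 highest libraries each stood apart from the next by their intervals. At 50 IU/mL, IL-2 libraries lay above IL-2v libraries on all 3 days. The top library was at 128 CPM without the cells holding Ly6g, Mcpt8 or Cpa3.

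Serpinb6b was the member with the largest span, 122-fold, and the only one whose peak fell on day 5. It was at 15.5 CPM in naive cells. On day 3 the 7 libraries were already at 60.2 to 119 CPM, with a median of 103. On day 5 it was at 18.7 CPM without cytokine, and in the 5 and 50 IU/mL cultures at 88.7 and 252 (IL-2), 57.4 and 92.1 (IL-2v) and 25.1 and 59.0 (IL-15). The day 10 cultures held 85.1 and 182 CPM (IL-2), 33.9 and 101 (IL-2v) and 2.06 (1.52 to 2.73) and 21.3 (IL-15). The lowest of these (5 IU/mL IL-15, day 10) was the one library whose interval lay below that of naive cells.

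Serpinb6a had the smallest span, 9.92-fold, from 18.0 CPM in naive cells to 178 CPM on day 10 with 50 IU/mL IL-2. Day 3 libraries were at 34.2 to 56.9 CPM with a median of 47.5. The day 5 culture without cytokine held 32.4 CPM, and those with 5 and 50 IU/mL held 49.1 and 58.0 (IL-2), 32.8 and 45.5 (IL-2v) and 32.6 and 35.9 (IL-15). Day 10 cultures were at 118 and 178 CPM (IL-2), 25.3 and 85.6 (IL-2v) and 19.1 and 20.5 (IL-15). The 3 highest were day 10 cultures, both doses of IL-2 and the higher dose of IL-2v. From the fourth library down to the seventeenth, neighbouring intervals overlapped. The highest was at 166 CPM without the cells holding Ly6g, Mcpt8 or Cpa3.

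Serpina3g followed another order. Naive cells held 7.04 CPM (5.88 to 8.36), and day 3 libraries 4.47 CPM (5 IU/mL IL-2, the lowest of all) to 32.3 (50 IU/mL IL-2v), with a median of 9.84. On day 5 the library without cytokine was the highest, at 55.0 CPM (52.2 to 58.0). The 5 and 50 IU/mL cultures beside it were at 23.2 and 12 CPM (IL-2), 21.9 and 45.4 (IL-2v) and 31.4 and 35.3 (IL-15). By day 10 the levels were 103 and 51.3 CPM (IL-2), 41.4 and 73.5 (IL-2v) and 13.6 and 15.4 (IL-15). The library with 5 IU/mL IL-2 was thus the highest of all 21, and it stood above that with 50 IU/mL on the same day. In day 10 IL-15 cultures it lay below all other day 10 cultures and above naive cells.

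**Figure D1:**
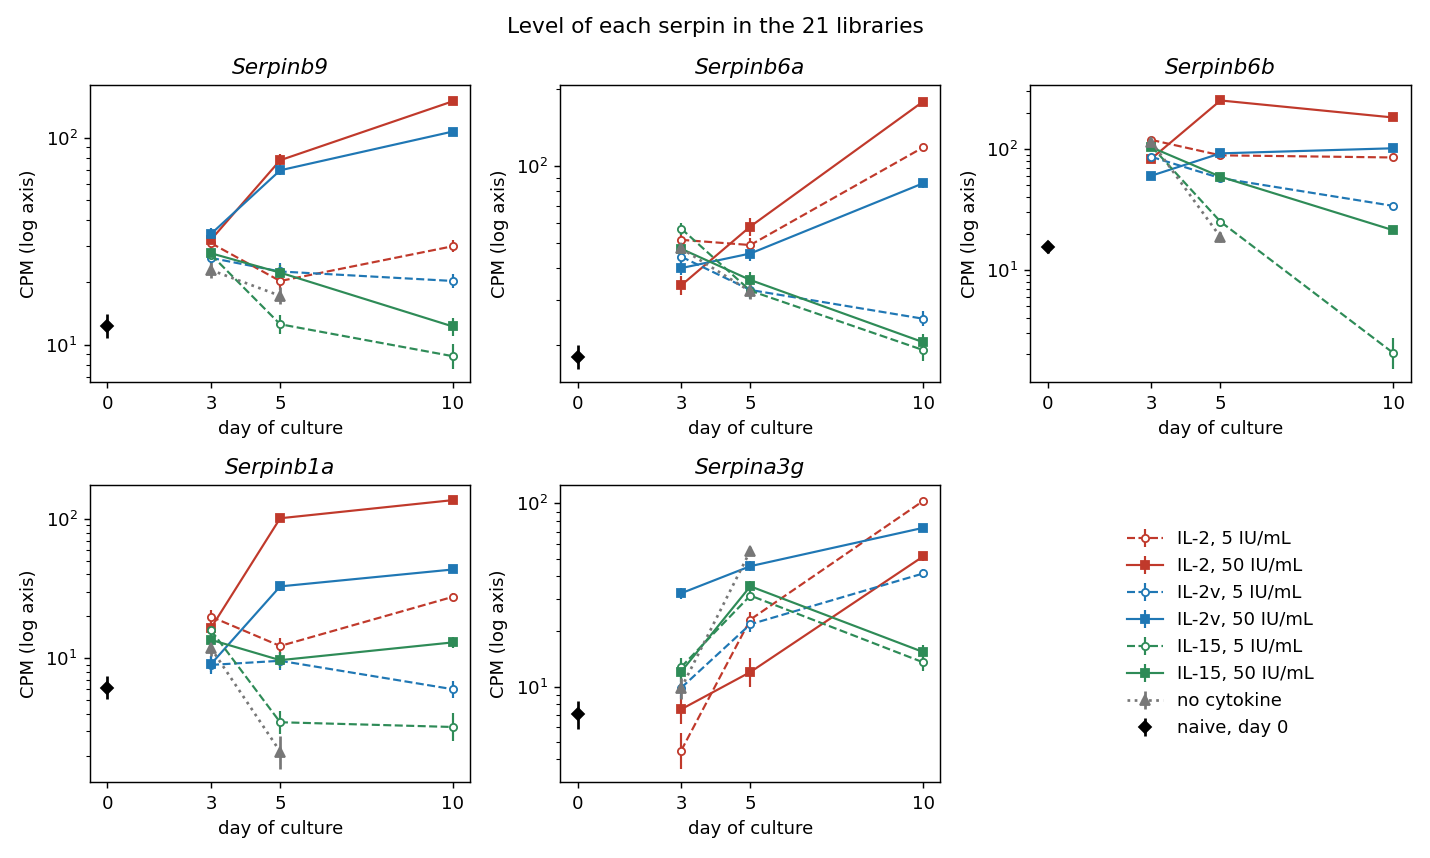
Level of each of the 5 serpins (CPM, log axis) against the day of culture, with 1 point per library and exact Poisson 95% intervals as bars. Lines join libraries of the same cytokine and dose; the 50 IU/mL IL-2 and IL-2v lines are the upper ones for Serpinb9 and Serpinb1a on days 5 and 10, and 5 IU/mL IL-2 is highest for Serpina3g on day 10.

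Of the 20 activated libraries, those with an interval above the naive interval numbered 17 for Serpinb9, 18 for Serpinb6a, 18 for Serpinb6b, 16 for Serpinb1a and 18 for Serpina3g. Intervals below the naive one were seen in 1, 0, 1, 3 and 1 libraries. Of the 20 steps between neighbours in each order of levels, the intervals were apart in 5, 5, 9, 7 and 7. These counts were not made over all genes. The intervals cover counting error only and are narrow at such numbers of UMIs, so the counts are descriptions and no trait particular to serpins.

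For activation alone, naive cells were compared with activated cells that had no cytokine on day 3. A gene was tested where either arm held at least 20 CPM on average. It was called where the difference of log2(CPM + 1), a scale on which changes of low genes look smaller than they are, was at least 1 in size. Serpinb6b (7.40-fold, 95% interval 6.54 to 8.38) and Serpinb6a (2.65-fold, 2.34 to 3.00) were called higher, which makes 2 of the 3 members tested. Both were under 20 CPM in naive cells and entered the test through the activated arm alone. A gene that enters through its higher arm alone tends to differ by that choice, so such calls are descriptions. Of all 6171 genes tested, 11.1% were called higher and 8.31% lower. Serpinb9 was 1.86-fold higher (1.59 to 2.18) and was not called, and it too entered through the activated arm alone. Serpinb1a (1.92-fold) and Serpina3g (1.39-fold) were below the 20 CPM limit in both arms. The median log2 difference was 1.36 over the tested members and −0.11 over all genes tested. As all 3 tested members entered through their higher arm alone, their median is a description.

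Genes of the protease and granule lists were called in both directions at this step. Gzmb, which encodes granzyme B, was at 6.50 and then 643 CPM (log2 6.42) and was called higher, whereas Prf1, which encodes the pore-forming perforin, was called lower (39.96 to 5.80 CPM). Each entered through its higher arm alone, and any level that entered was already past the limit, so these calls follow from the filter. Of 10 cathepsins tested, 3 were called lower: Ctss (log2 −1.37), Ctse (−1.27) and Ctso (−1.26). The granule release factor Stxbp2 (1.01) was called higher. Of 11 interferon response genes tested, Gbp2 (1.30) and Iigp1 (2.46) were called higher. In that list Irf7, Ifit1, Ifit3 and Isg15 (−3.22 to −1.59) were called lower.

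Next, each cytokine culture was compared with the culture of its day that had none. The 6 comparisons of a day share that 1 control library, so they are given side by side and not compared by overlap. On day 3, Serpina3g with 50 IU/mL IL-2v was the single member called higher, at 3.30-fold (2.83 to 3.85), entering through the IL-2v arm alone (9.80 CPM in the control), where 7.83% of 6069 genes were called higher. In the other day 3 comparisons the share of genes called higher was 0.142% and 6.45% (5 and 50 IU/mL IL-2), 0.211% (5 IU/mL IL-2v) and 0.142% and 0.819% (IL-15). No member was called lower on day 3. The shares of genes called lower were 0.106% and 2.74% (5 and 50 IU/mL IL-2), 0.0704% and 1.75% (IL-2v) and 0.285% and 0.261% (IL-15). Serpina3g stood at 0.457-fold (0.350 to 0.591) with 5 IU/mL IL-2, at levels under 20 CPM. Among members tested, Serpinb6b was nearest to a call, at 0.524-fold (0.490 to 0.559) with 50 IU/mL IL-2v. It did pass the limit (1 call) under TMM scaling, with totals free of ribosomal protein and mitochondrial genes, with the mean of single-cell CPM, and when cycling cells were left out.

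On day 5, Serpinb1a, Serpinb6b and Serpinb9 were called higher than the control at the higher doses of IL-2 and IL-2v, and Serpina3g was called lower in 3 of 6 comparisons. With 50 IU/mL IL-2, Serpinb1a was 47.3-fold (36.1 to 63.2), Serpinb6b 13.5-fold (12.2 to 14.9) and Serpinb9 4.52-fold (4.02 to 5.09) above the control, and all 3 were called higher, where 16.5% of genes were. With 50 IU/mL IL-2v the same genes were called, at 15.3-fold, 4.92-fold and 4.04-fold, where 21.1% of genes were called higher and 5.53% lower. Serpinb6b was also called higher with 5 IU/mL IL-2 (4.74-fold; background 2.14%), with 5 IU/mL IL-2v (3.07-fold; background 9.75%) and with 50 IU/mL IL-15 (3.16-fold; background 5.82% higher, 1.9% lower). All these genes were under 20 CPM in the control and entered through the cytokine arm alone. For Serpinb1a (2.14 CPM in the control) any level that entered was already past the limit, so its calls follow from the filter. Where it did not enter, Serpinb1a was 5.73-fold (4.26 to 7.82) above the control with 5 IU/mL IL-2, 4.48-fold (3.30 to 6.18) with 5 IU/mL IL-2v and 4.53-fold (3.36 to 6.20) with 50 IU/mL IL-15. With 5 IU/mL IL-15 no member was called, where 1.42% of genes were called higher and 0.321% lower. Serpinb6a was not called, at 1.79-fold (1.61 to 1.99) with 50 IU/mL IL-2 and 1.41-fold (1.28 to 1.54) with 50 IU/mL IL-2v.

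Serpina3g was called lower than the day 5 control with 5 IU/mL IL-2 (0.422-fold, 0.379 to 0.468; 0.36% of genes lower), with 50 IU/mL IL-2 (0.218-fold, 0.180 to 0.261; 7.54%) and with 5 IU/mL IL-2v (0.397-fold, 0.355 to 0.444; 2.62%). With 50 IU/mL IL-2, Serpina3g was under 20 CPM and entered through the control arm alone, where it was higher, so that call is a description. Over the alternative settings, the calls of members lower on day 5 numbered 2 to 3. It was at 0.825-fold with 50 IU/mL IL-2v, 0.570-fold with 5 IU/mL IL-15 and 0.641-fold with 50 IU/mL IL-15. None of these was called. In the library without cytokine itself the members differed between days. From day 3 to day 5, Serpinb6b went from 115 to 18.7 CPM, Serpinb1a from 11.8 to 2.14 and Gzmb from 643 to 47.2, whereas Serpina3g went from 9.80 to 55.0 CPM. The cycling genes Mki67 or Top2a had a UMI in 60.0% and 13.8% of the cells of these libraries, and the part of cycling in the difference was not tested.

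IL-2v was set against IL-2 in 6 pairs of equal day and dose. A gene was called where all pairs had the same sign and the median log2 difference was at least 1 in size. Serpinb1a was called lower with IL-2v, with a median log2 difference of −1.33 (lowest −2.03, highest −0.32) and mean levels of 18.3 against 52.4 CPM. It was the single member called among the 5 tested, and it entered through the IL-2 arm alone, where it was higher. Of 5839 genes tested, 1.04% were called higher and 0.274% lower. The ratio of IL-2v to IL-2 for Serpinb1a was 0.451 and 0.551 on day 3 (5 and 50 IU/mL), 0.783 and 0.324 on day 5, and 0.217 and 0.318 on day 10, and all 6 intervals lay below 1. The call was lost without day 10 (−0.93), with a pseudocount of 10 CPM (−0.95) and when cells holding Mki67 or Top2a were left out (−1.30, with signs that differed between pairs). The share of cells holding a UMI of these cycling genes was 18.2% and 13.4% in the day 10 IL-2 cultures and 40.6% and 25% in those with IL-2v, and its part in the result was not tested.

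Serpinb6b was lower with IL-2v in 6 of 6 pairs, with ratios of 0.365 to 0.725, and its median of −0.73 did not reach the limit. For Serpinb9 the ratios lay between 0.679 and 1.11 (median log2 −0.19), and they were nearest to 1 on days 3 and 5. On day 10 Serpinb9 with IL-2v was at 0.679-fold (0.613 to 0.752) of IL-2 at 5 IU/mL and at 0.714-fold (0.681 to 0.749) at 50 IU/mL. Serpinb6a was at 0.214-fold (0.198 to 0.231) and 0.480-fold on day 10 and between 0.668-fold and 1.17-fold before that. Serpina3g had no common direction. It was 4.30-fold (3.55 to 5.24) and 3.79-fold (3.14 to 4.59) higher with IL-2v at 50 IU/mL on days 3 and 5, but at 0.402-fold (0.377 to 0.429) on day 10 at 5 IU/mL. The median over the 5 members was −0.46 and over all genes 0.06. As Serpinb1a entered through its higher arm alone, the member median is a description. None of the listed granzymes, cathepsins, cystatins, granule proteins, caspases or interferon genes was called in this comparison. Gzmb had a median log2 difference of −0.11 (lowest −1.28, highest 0.95).

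The same pairs were formed for IL-15 and IL-2, and here Serpinb1a (median log2 −2.17) and Serpinb9 (−1.16) were called lower, where 1.7% of 5718 genes were called lower and 0.49% higher. Both entered through the IL-2 arm alone, since their IL-15 means were 9.82 and 18.4 CPM against 52.4 and 56.9 with IL-2. For Serpinb9 the ratio of IL-2 to IL-15 was 1.14 and 1.16 on day 3, 1.62 and 3.49 on day 5, and 3.40 and 12.3 (11 to 13.6) on day 10 at 5 and 50 IU/mL. For Serpinb1a it was 1.25 and 1.22, then 3.53 and 10.4, then 8.59 and 10.5. Without day 10 neither was called (−0.94 for Serpinb1a and −0.43 for Serpinb9). Serpinb9 was also not called without day 5 (−0.93) or with a pseudocount of 10 CPM (−0.76). Gzmb and Gzmc were the listed granzymes called lower with IL-15 (median log2 −1.47 and −2.59). Gzmc too entered through the IL-2 arm alone. The median over the members was −1.16 and over all genes −0.01. As Serpinb9 and Serpinb1a entered through their higher arm alone, the member median is a description.

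Serpinb6b was lower with IL-15 in 5 of 6 pairs (median log2 −1.93), the exception being day 3 at 50 IU/mL (1.24-fold). On day 10 it was 41.3-fold (31.1 to 56.2) higher with 5 IU/mL IL-2 than with 5 IU/mL IL-15. Serpinb6a (−0.63) was higher with IL-15 on day 3 and lower on days 5 and 10, where IL-2 stood 6.19-fold and 8.71-fold above IL-15 by day 10. Serpina3g was higher with IL-15 in all 4 pairs of days 3 and 5 (1.35-fold to 2.94-fold) and lower in both pairs of day 10 (0.132-fold and 0.301-fold). Its median of 0.52 turned to −0.62 without day 3 and to −0.53 without day 5.

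Between IL-2v and IL-15 no member was called, where 2.48% of 5810 genes were called higher and 0.585% lower. Serpinb9 (median 0.96), Serpinb6b (0.90), Serpina3g (0.85) and Serpinb6a (0.17) missed the limit of 1 and were not of 1 sign, with IL-2v above IL-15 in 5, 4, 4 and 4 of 6 pairs, and Serpinb1a (0.99) did not reach 20 CPM on average. On day 3 Serpinb9 with IL-2v was at 0.965-fold and 1.24-fold of IL-15, and on day 10 at 2.31-fold and 8.75-fold (7.87 to 9.75). Without day 3, 3 members were called higher (Serpinb9, Serpinb6b and Serpinb1a). Of these, Serpinb9 and Serpinb1a entered through the IL-2v arm alone. Gzmb (2.05) and Gzmc (1.60) were called higher with IL-2v, and Gzmc entered through the IL-2v arm alone.

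**Figure D2:**
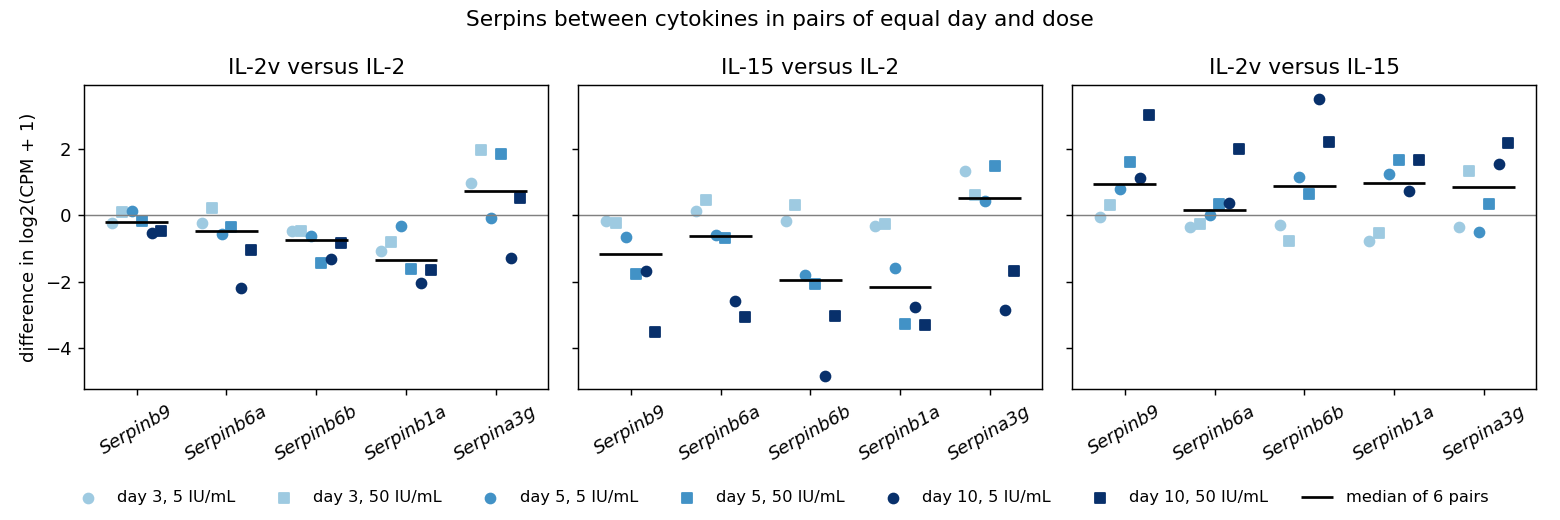
Difference of log2(CPM + 1) for each serpin in the 6 pairs of equal day and dose, for IL-2v versus IL-2, IL-15 versus IL-2 and IL-2v versus IL-15. Symbols give the dose and shades the day; the bar is the median of the 6 pairs. All Serpinb1a points lie below 0 in the first 2 panels, and day 3 points lie nearer to 0 than day 10 points for Serpinb9.

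The dose of cytokine was examined within each day. With IL-2, Serpinb9 was called higher at 50 than at 5 IU/mL (median log2 1.89), where 4.29% of 5879 genes were called higher and 2.7% lower. The ratio was 1.04 (0.922 to 1.17) on day 3, 3.83 (3.40 to 4.33) on day 5 and 5.02 (4.67 to 5.40) on day 10. Serpinb1a had the larger median (2.26), with 8.26-fold on day 5 and 4.94-fold on day 10, but was at 0.831-fold (0.707 to 0.974) on day 3. Serpinb6b likewise stood at 0.699-fold on day 3, 2.84-fold on day 5 and 2.14-fold on day 10 (median 1.09). Serpinb6a had a median of 0.24, which turned to −0.17 without day 10. Serpina3g was 1.68-fold (1.26 to 2.25) higher at the higher dose on day 3 and lower on days 5 and 10, at 0.517-fold (0.421 to 0.630) and 0.498-fold (0.467 to 0.531). Without day 10, Serpinb9 was not called (0.97). Without day 3, Serpinb1a and Serpinb6b were called too, which made 3 members, and Serpinb1a entered through the higher dose alone. The median over the members was 1.09, beside 0.03 for all genes. With all days included, Serpinb1a also entered through the higher dose alone, so the member median is a description.

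With IL-2v the higher dose gave 3 called members: Serpinb9 (median log2 1.58), Serpinb1a (1.68) and Serpina3g (1.02), where 2.38% of 5913 genes were called higher and 0.626% lower. Serpinb9 was 1.31-fold, 3.08-fold and 5.28-fold (4.85 to 5.75) higher on days 3, 5 and 10. Serpinb1a, which entered through the higher dose alone (means of 28.5 and 8.19 CPM), was at 1.01-fold (0.830 to 1.24) on day 3, 3.42-fold on day 5 and 7.24-fold (6.22 to 8.46) on day 10. Serpina3g was 3.28-fold (2.81 to 3.85), 2.08-fold and 1.78-fold higher. On days 5 and 10 its IL-2v ratios thus lay above 1 and its IL-2 ratios below 1, whereas on day 3 both lay above 1. The difference between the cytokines was not tested. Serpina3g was not called under TMM scaling (0.84), with totals free of ribosomal protein and mitochondrial genes (0.91), with a pseudocount of 10 CPM (0.80) or without day 3 (0.92). Serpinb1a, whose day 3 ratio is near 1, was called under neither scaling, nor with averaged single-cell CPM, without possible doublets, with the stricter mitochondrial limit or when cycling cells were left out (medians between 1.496 and 1.802). Without day 3, Serpinb6a (1.09) and Serpinb6b (1.11) were called in addition, which made 4 members. Without day 10, Serpina3g was the single member called, with Serpinb9 at 0.98 and Serpinb1a at 0.85. Serpinb6b was at 0.698-fold, 1.60-fold and 3.00-fold, and Serpinb6a at 0.903-fold, 1.39-fold and 3.38-fold.

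With IL-15 no member was called at the higher dose, where 0.869% of 5523 genes were called higher and 0.181% lower. Serpinb6b had a median of 1.2, from 0.981-fold (0.925 to 1.04) on day 3 to 2.35-fold on day 5 and 10.4-fold (7.72 to 14.2) on day 10. It was called without day 3 (2.04), where it entered through the higher dose alone. Serpinb1a was at 0.854-fold, 2.79-fold and 4.05-fold. Serpinb9 was 1.78-fold (1.55 to 2.03) higher on day 5 and 1.39-fold (1.17 to 1.66) on day 10, beside 3.83-fold and 5.02-fold with IL-2; the difference between cytokines was not tested. Serpina3g differed by at most 1.14-fold.

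The listed proteases were compared between doses as well. With IL-2, 4 of 8 granzyme and perforin genes tested were called higher at 50 IU/mL (Gzmb, Gzmd, Gzme and Prf1), with Gzmb at a median log2 of 2.63. The median over that list was 1.99. Gzmd, Gzme and Prf1 entered through the 50 IU/mL arm alone, Gzmd and Gzme by its day 10 library (3602 and 1752 CPM). The count and median of the list are thus descriptions. Of all genes tested with IL-2, 4.29% were called higher and 2.7% lower, with a median of 0.03. With IL-2v, 4 of 8 were called (Gzma, Gzmb, Gzmc and Prf1), with Gzmb at 1.88 and a list median of 1.30. Of all genes tested with IL-2v, 2.38% were called higher (median 0.10). Gzmc and Prf1 entered through the 50 IU/mL arm alone. With IL-15, Gzmb was called (1.84; 1 of 2 tested), where 0.869% of all genes were. Cathepsins went the other way with IL-2: 3 of 9 tested were called lower, Ctss (−1.33), Ctsw (−1.13) and Ctso (−1.12), and none higher (list median −0.38). None of 3 cystatins, 7 granule proteins and 2 caspases or granzyme B substrates was called with the dose of IL-2. Of 9 interferon response genes tested, 5 were called lower with the higher dose of IL-2, among them Iigp1 (−1.68), Gbp2 (−1.26), Irf7 (−1.16) and Irf1 (−1.05), and the list median was −1.05. With IL-2v none of the cathepsins or interferon genes was called.

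Between days, Serpina3g was called higher on day 5 than on day 3 (median log2 1.15, higher in 6 of 6 pairs), where 0.829% of 5912 genes were called higher and 2.22% lower. It entered through day 5 alone (mean 28.2 CPM, against 13.2 on day 3). The ratio was 5.19 (4.09 to 6.64) and 1.60 for the 2 doses of IL-2, 2.22 and 1.41 in the IL-2v cultures, then 2.46 and 2.92 in the IL-15 cultures. It was not called with a pseudocount of 10 CPM (0.77) or when cycling cells were left out (0.93). Serpinb9 was 2.42-fold and 2.03-fold higher on day 5 with 50 IU/mL IL-2 and IL-2v, and lower in the other 4 pairs (0.461-fold to 0.860-fold). From day 5 to day 10 no member was called, where 0.0705% of 5676 genes were called higher and 1.62% lower. Serpina3g was 4.44-fold (4.03 to 4.91) and 4.28-fold (3.57 to 5.17) higher on day 10 with 5 and 50 IU/mL IL-2, and at 0.432-fold and 0.438-fold with IL-15. Serpinb6a was 2.41-fold and 3.08-fold higher with IL-2. For Serpinb6b, the day 10 level was 0.0822-fold (0.0601 to 0.110) of that on day 5 with 5 IU/mL IL-15.

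The levels were then set beside those of the granzymes. Gzmb ran from 2.23 CPM (day 10, 5 IU/mL IL-15) and 6.50 (naive) to 7618 (day 10, 50 IU/mL IL-2), with 643 to 1873 on day 3. Serpinb9 was lowest and highest in the same libraries as Gzmb. Over the 21 libraries, Serpinb9 and Gzmb had a Pearson r of 0.831 and a Spearman rho of 0.975 on log2(CPM + 1), and r was 0.826 without the 2 libraries farthest in Serpinb9. Serpinb6b and Gzmb had r of 0.902 and rho of 0.735, and Serpinb1a and Gzmb 0.732 and 0.800. For Serpinb6a the granzyme most alike was Gzma (r 0.923, rho 0.895; 0.829 without the 2 farthest libraries). The likeness of Serpina3g with Gzmb was low (r 0.242, rho 0.178). The libraries share cells, depth and scaling between genes, and they include cultures of the same cytokine on several days, so these values describe the pattern.

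**Figure D3:**
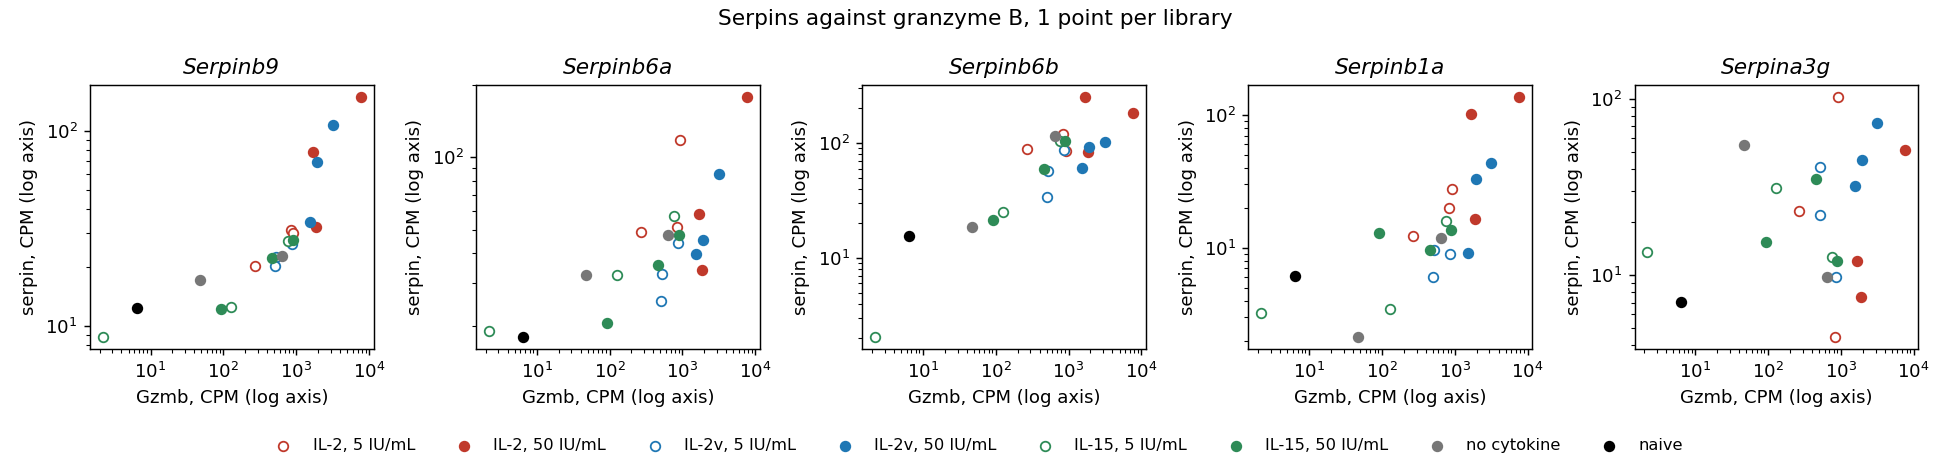
Level of each serpin against the level of Gzmb (both CPM, log axes), with 1 point per library coloured by cytokine. Points are open for 5 IU/mL and filled for all other libraries. Serpinb9 tends to rise with Gzmb, with differing levels at like Gzmb, whereas Serpina3g points are scattered. The top Serpina3g point is 5 IU/mL IL-2 on day 10.

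With 50 IU/mL IL-2, serpin levels differed between days 3 and 5 at like levels of Gzmb. Gzmb was at 1873 CPM on day 3 and 1689 CPM on day 5 with 50 IU/mL IL-2. Between these libraries Serpinb9 went from 32.2 to 77.8 CPM, Serpinb6b from 83.2 to 252 and Serpinb1a from 16.5 to 101. Gzma, which encodes granzyme A, was at 11.9 and 160 CPM in the same libraries. Another pair went otherwise: Gzmb was at 642.5 CPM on day 3 without cytokine and 525.8 CPM on day 5 with 5 IU/mL IL-2v. In that pair Serpinb9 was at 22.9 and 22.6 CPM, and Serpinb6b was lower on day 5 (114.9 and 57.4 CPM). On day 10 Gzma reached 1114 and 5352 CPM in the 5 and 50 IU/mL IL-2 cultures and 475 CPM at the higher dose of IL-2v, the 3 libraries highest in Serpinb6a. It was at 15.3 CPM with 5 IU/mL IL-2v and at most 8.62 CPM with IL-15.

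At the level of cells, each cell was thinned to 2000 UMIs, which left out 57 to 393 cells per library, and shares have exact (Clopper-Pearson) 95% intervals. Cells with a Serpinb9 UMI made up 2.19% (1.78 to 2.67) of naive cells, 1.67% (1.34 to 2.05) on day 10 with 5 IU/mL IL-15, 17.0% (15.9 to 18.0) with 50 IU/mL IL-2v and 22.9% (21.8 to 24.2) with 50 IU/mL IL-2. Without thinning the shares were 4.42%, 3.54%, 35.7% and 45.0%, at median depths of 3799, 3927, 4926 and 5065 UMIs. Serpinb6b UMIs were found in 34.3% of cells on day 5 with 50 IU/mL IL-2 and in 0.408% on day 10 with 5 IU/mL IL-15. Serpinb1a peaked at 19.6%, Serpinb6a at 27.8% (both day 10, 50 IU/mL IL-2) and Serpina3g at 15.9% (day 10, 5 IU/mL IL-2). No cell type that lacks these genes was present to measure free RNA, which gives UMIs in cells that do not make a gene. The part of free RNA in these shares was not tested.

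Within a library, thinned cells with at least 1 Gzmb UMI were compared with cells without one, in the 19 libraries with at least 50 cells of each kind. Serpinb6b was higher in cells with Gzmb in 19 of 19 libraries, with a median ratio of 1.48, and the interval lay above 1 in 15. Serpinb9 was higher in 17 of 19 libraries (median ratio 1.33) and the interval lay above 1 in 6. The largest Serpinb9 ratio, 3.41 (2.03 to 6.17), was that of 50 IU/mL IL-2v on day 3, from 36.4 CPM in cells with and 10.7 CPM in cells without Gzmb. Those without Gzmb held 15 Serpinb9 UMIs. Serpinb6a (15 of 19 libraries, median 1.22) and Serpinb1a (15 of 19, median 1.28) had intervals above 1 in 9 and 6 libraries. For these 4 genes no interval lay below 1. The same counts were not made over all genes, so they are descriptions and no trait particular to serpins. Under the other settings (thinning to 1000 UMIs, none, at least 3 Gzmb UMIs, or cells outside the cycle) the number of intervals above 1 ran from 11 to 18 for Serpinb6b, 4 to 14 for Serpinb9, 2 to 7 for Serpinb6a and 2 to 6 for Serpinb1a. Without thinning, 1 Serpinb6a interval lay below 1. The largest Serpinb9 ratio of any library was 2.22 with thinning to 1000 UMIs and 2.89 without thinning. It was 1.74 in cells outside the cycle and 3.92 with at least 3 Gzmb UMIs.

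Serpina3g had ratios on both sides of 1. It was higher in cells with Gzmb in 7 of 19 libraries (median ratio 0.801), and its interval lay below 1 in 4 libraries and above 1 in 4. The 4 below were from days 3 and 5, such as day 3 without cytokine (0.455, 0.291 to 0.700) and day 5 with 5 IU/mL IL-2 (0.556, 0.390 to 0.779). Of the 4 above, 3 were from day 10: 5 IU/mL IL-2 (1.54, 1.36 to 1.73), 5 IU/mL IL-2v (1.28, 1.06 to 1.53) and 50 IU/mL IL-15 (1.60, 1.12 to 2.24). The other was day 5 with 50 IU/mL IL-2 (3.18, 1.05 to 15.8). In the day 10 cultures with 50 IU/mL the ratio was below 1 for IL-2 (0.602, 0.334 to 1.21) and IL-2v (0.789, 0.601 to 1.06), with intervals that included 1. Under the other settings, 1 to 8 Serpina3g intervals lay below 1 and 2 to 3 above. The share of cells with Gzmb ran from 4.56% (day 5, no cytokine) to 98.8% (day 10, 50 IU/mL IL-2), and the part of free Gzmb RNA was not tested.

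**Figure D4:**
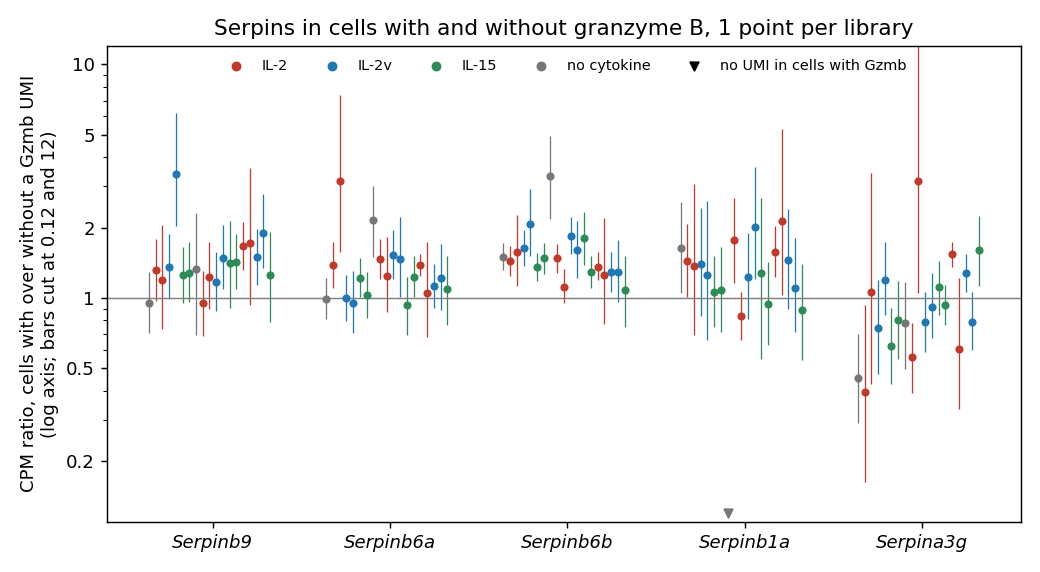
Ratio of each serpin's CPM in cells with a Gzmb UMI over cells without one (log axis), with 1 point per library and 95% intervals, after thinning each cell to 2000 UMIs. Points of Serpinb6b lie above 1 in all 19 libraries, and those of Serpina3g lie on both sides; bars are cut at the axis limits, and the triangle is a library with no Serpinb1a UMI in cells with Gzmb.

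The genes whose pattern was most like each member were sought among the 5495 genes that averaged 20 CPM or more, by Pearson's r of log2(CPM + 1) over the 21 libraries. For Serpinb9 they were Ltb4r1 (0.960), Il12rb1 (0.945), Fam129a, Adam8 and Ccng1. For Serpinb1a they were Ltb4r1 (0.932), Rab11a (0.910), Rhoq, Serpinb9 (0.886) and Tm6sf1. For Serpinb6a they were Pstpip1 (0.948), Grina (0.928), Rnh1, Gzma and Glrx, and for Serpinb6b Dkkl1 (0.941), Gyg (0.925), Unc119, Abcb9 and Anxa2. Serpina3g had the lowest values: Efhd2 (0.828), Ly6c2 (0.810), Dok2 and Id2. With Spearman's rho in place of r, 1 to 3 of each 5 genes stayed among the first 5.

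Of the 14 other genes whose symbol starts with Serpin, 2 reached 20 CPM in at least 1 library. Serpina3f had its highest level, 24.9 CPM, on day 5 with 50 IU/mL IL-15 and its lowest, 1.03, in naive cells. Like Serpina3g it was higher on day 5 than on day 3 in 6 of 6 pairs (median log2 1.15) but did not reach 20 CPM on average and was not tested. On day 10 it was at 1.89 and 1.26 CPM with IL-15 and at 11.4 and 10.7 with IL-2. Serpina3f shares 10.6% of its 50-base stretches with other genes, above all with Serpina3g (6.03%). The part of shared reads in the likeness of these genes was not tested. How many of all genes had 1 sign in those pairs was not computed. Serpine2, an inhibitor of thrombin and related proteases outside the cell, was highest on day 10 with 50 IU/mL IL-2 (32.6 CPM) and IL-2v (23.7 CPM), and at 0.0542 CPM in naive cells. Serpini1 reached 17.3 CPM, and Serpina9 and Serpinf2 had no UMI in any library.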

How the data were processed

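Per the labels, single-cell RNA was measured in OT1 CD8 T cells. The deposited files hold raw counts of UMIs per gene symbol and cell, made by the authors with Cell Ranger and Seurat (4.0.1 and 3.0.2) on build mm10, per the submitters' processing notes, which give no order or role for them. Doublet removal before deposit, and strand, are not given in the sources used here. Groups were taken from the titles. The treatment labels of 3 libraries titled IL-2 and 3 titled IL-15 (all 50 IU/mL) name interleukin-3 and interleukin-16, and the titles were followed. The extract protocol speaks of CD44+CD45.1+CD8+ cells sorted from tumours, the growth protocol of culture; the cells were treated as cultured. Day 7 was not analysed here.

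Cells needed 1000 UMIs, 500 genes and a mitochondrial share of no more than 10% (2 of 106458 removed), and no doublet caller was run. Between any pair of libraries, 1 to 19 barcode sequences were shared (at most 0.340% of the smaller library). UMIs were summed per library and scaled to CPM. Differences of log2(CPM + 1) were taken in pairs of equal day, dose or cytokine; genes whose mean over the pairs reached 20 CPM in at least 1 arm were tested, and the call rule is given with each comparison. Pairs at different days or doses are not replicates. Ratios have exact conditional 95% intervals. The pairing and call step was tested on simulated data for IL-2v versus IL-2 (17516 genes run, 5508 tested): 200 of 200 planted 4-fold changes were called and 0 other genes. Changes were planted in well-expressed genes only, and the counts carried counting error but no spread between cultures. The trial thus checks the code and says nothing of lower genes or of false calls from that spread.

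Named genes were the 5 members, other serpins reaching 20 CPM, granzymes and Prf1, called genes of the lists (14 cathepsins, 8 cystatins, 8 granule proteins, 8 granzyme B substrates and caspases, 11 interferon response genes) and the 5 genes most alike each member. A few genes that this rule names are not reported here. The members, lists and alternatives were chosen with earlier results of these data known. List counts and medians stand beside those of all genes tested, with no test of a list. Alternatives were TMM scaling (edgeR 4.0.16), totals free of genes for ribosomal proteins and of mitochondrial genes, averaged single-cell CPM, a pseudocount of 10 CPM, no expression filter, possible doublets left out (above 2 times the median UMIs), at most 5% mitochondrial UMIs, leaving out cycling cells (a Mki67 or Top2a UMI) or 1 day at a time, thinning to 1000 UMIs or none, and at least 3 Gzmb UMIs. Leaving out cells with a Ly6g, Mcpt8 or Cpa3 UMI was chosen after seeing the data. Python 3.11.15 (numpy 2.4.6, pandas 2.3.3, scipy 1.17.1) was used. Promoter windows are from RefSeq, positions from GENCODE, matched by symbol.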

Additional observations from a re-analysis of the deposited data

Results flagged for a closer look

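In 5 cases a serpin stood on opposite sides of 0 with 2 cytokines: both doses of one cytokine moved one way between days and both doses of the other the opposite way. Each rests on 2 pairs of single libraries per cytokine, and the difference between the cytokines was not tested. The 5 cases are those found in a search of all members over dose, day and cytokine contrasts. The share of all genes that meet the same rule was not computed, so the count says nothing particular to serpins. Values are medians of the log2 difference over the 2 doses. From day 5 to day 10, Serpinb9 was at 0.74 with IL-2 (0.54 to 0.94) and −0.64 with IL-15 (−0.81 to −0.47). Serpinb6a was at 1.43 with IL-2 (1.25 to 1.60) and −0.76 with IL-15 in the same step. Serpina3g was at 2.06 with IL-2 and −1.15 with IL-15, and at 0.79 with IL-2v against the same −1.15. From day 3 to day 5, Serpinb1a was at 0.92 with IL-2v (0.09 to 1.74) and −1.18 with IL-15 (−1.92 to −0.45). At the low end of that range, 5 IU/mL IL-2v, the ratio for Serpinb1a was 1.07 with an interval of 0.866 to 1.32, so the direction at that dose is within counting error. The share of cells with a UMI of Mki67 or Top2a ranged from 3.01% to 86.9% over the libraries, and its part in these differences was not tested.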

How the results depend on the processing

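Of 254 recomputed counts of calls, 21 moved by over 1.5 times. Against IL-2, the count of members lower with IL-2v (1) was 0 with a pseudocount of 10 CPM, when cycling cells (a UMI of Mki67 or Top2a) were left out and without day 10, and 2 without day 3. The count lower with IL-15 (2) was 1 with a pseudocount of 10 CPM, 4 without day 3, 1 without day 5 and 0 without day 10. Without day 3, members higher with IL-2v than IL-15 numbered 3 in place of 0. Members higher at 50 IU/mL IL-2 (1) were 3 without day 3 and 0 without day 10, and those higher at 50 IU/mL IL-15 (0) were 1 without day 3. For IL-2v dose (3) the count was 1 under TMM scaling, with totals without ribosomal protein and mitochondrial genes, and without day 10, and 4 without day 3. For day 5 versus day 3 (1) it was 0 with a pseudocount of 10 CPM and when cycling cells were left out. Against no cytokine on day 3, calls lower (0) were 1 under both scalings, with the mean of single-cell CPM and when cycling cells were left out. Of 495 recomputed medians, 144 left the counting interval and none of a called member changed sign. Among uncalled medians, that of Serpinb6a also changed sign for IL-2v versus IL-15 (−0.05 under TMM scaling, −0.12 without day 10) and for IL-15 dose (as low as −0.08 without day 5). TMM scaling moved the median of all genes by −0.12 for IL-2v dose, 0.14 for day 10 versus day 5 and −0.33 for 50 IU/mL IL-2v versus no cytokine on day 5. Depth limits Serpinb6b and Serpinb1a most, with 48 and 55 UMIs in their lowest libraries.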
